A study of Mus musculus with 9 samples.

Results

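The genes described here encode the nuclear-encoded subunits of the oxidative phosphorylation machinery in CD4+ T cells. They were chosen by symbol, as every row of the deposited table whose name starts with a subunit prefix: Nduf a, b, c, s or v for complex I, Sdha to Sdhd for complex II, Uqcr for complex III, Cox4 to Cox8 for complex IV and Atp5 for complex V. Rows named as pseudogenes, 2 in all, were left out. This gave 89 of 39253 genes, with 42 in complex I, 4 in complex II, 8 in complex III, 18 in complex IV and 17 in complex V. The rule uses symbols and no measured value. Ndufa4, also known as a complex IV subunit, is counted in complex I by its symbol.

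Oxidative phosphorylation takes place in the inner mitochondrial membrane. Complexes I and II pass electrons from NADH and succinate to ubiquinone, complex III passes them on to cytochrome c, and complex IV hands them to oxygen, while complexes I, III and IV pump protons that drive ATP synthesis by complex V. Most subunits are encoded in the nucleus and imported, and the remaining core subunits are made inside the mitochondrion. T cells use this machinery at rest and expand it when they are activated, alongside a rise in glycolysis.

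RNA was measured in mouse CD4+ T cells on day 9 of experimental autoimmune encephalomyelitis (EAE), in which mice are immunised against myelin so that their T cells attack the brain and spinal cord, a common model of multiple sclerosis. Batch 1 held 2 wildtype libraries (WT1 and WT2) and 3 libraries labelled ERα KO, for a knockout of estrogen receptor alpha (KO1, KO2 and KO3). Batch 2 held 2 wildtype libraries (WT3 and WT4) and 2 ERα KO libraries (KO4 and KO5). All groups shared the disease and the day. The labels used here do not give the cells in which the receptor was deleted, the tissue, the sex or age of the mice, or whether each library is a separate animal. The p-values therefore refer to spread between these libraries, estimated for each gene with information shared over all genes. The series title names signalling in dendritic cells, while the sequenced cells were CD4+ T cells.

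The libraries of the batches stood apart before any subunit gene was considered. Total counts were 4925770 to 11297025 per batch 1 library and 45012999 to 69844645 per batch 2 library. The T cell genes Cd4 and Cd3e were high in all 9 libraries, with Cd4 between 925 and 1321 counts per 1000000 counts of the library (CPM). Genes for sensory receptors, which T cells are not known to use, took 0.0582% to 0.254% of batch 1 counts and 0.00257% to 0.00370% of batch 2 counts. Summed neutrophil markers (9 genes) ran from 332 to 1242 CPM in batch 1 and from 5.78 to 233 CPM in batch 2, and summed red cell markers (6 genes) reached 1820 CPM in WT3 against 4.09 to 141 CPM in the other 8 libraries. Xist was at 1745 to 2680 CPM in 4 batch 1 libraries, at 30.4 CPM in KO3 and at 0 to 0.289 CPM in batch 2, while the Y-linked gene Ddx3y was at 55.4 CPM in KO3, at 93.6 to 107 CPM in batch 2 and at 0 in the other batch 1 libraries. KO3 therefore stood apart within its batch, and the counts over the subunit genes and the main single genes are also given without it. Esr1, the targeted gene, had 101 and 76 counts in WT3 and WT4 against 9 and 14 in KO4 and KO5, but 55 and 80 counts in WT1 and WT2 against 72, 55 and 66 in KO1, KO2 and KO3, so in batch 1 it did not separate the labels. Batch 1 knockout libraries below are those labelled so.

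The stretches below are the 160 bases upstream of the start of 6 subunit genes whose values are described further on, at least 1 from each complex. They come from RefSeq promoter windows on GRCm38.p6, which is not the build named for the deposited table, and each is written 5′ to 3′ on the strand of its gene. Capitals mark matches, on either strand, to GCGCNTGCG, a relaxed form of the core of the motif of NRF1 (nuclear respiratory factor), and to CCGGAAG, a core of the ETS family motif that GABPA recognises. The stretches are Ndufa12 at chr10:94198875-94199034 (plus strand), Ndufb4 at chr16:37654369-37654528 (minus strand), Sdhd at chr9:50603850-50604009 (minus strand), Uqcrh at chr4:116075071-116075230 (minus strand), Cox7c at chr13:86046796-86046955 (minus strand) and Atp5k at chr5:108434400-108434559 (minus strand).
Ndufa12: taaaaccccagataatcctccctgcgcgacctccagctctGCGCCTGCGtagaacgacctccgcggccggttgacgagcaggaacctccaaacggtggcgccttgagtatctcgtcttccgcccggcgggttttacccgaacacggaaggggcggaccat
Ndufb4: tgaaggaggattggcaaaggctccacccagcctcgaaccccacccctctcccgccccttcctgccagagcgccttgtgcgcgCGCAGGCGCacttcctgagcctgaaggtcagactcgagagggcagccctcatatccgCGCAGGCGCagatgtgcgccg
Sdhd: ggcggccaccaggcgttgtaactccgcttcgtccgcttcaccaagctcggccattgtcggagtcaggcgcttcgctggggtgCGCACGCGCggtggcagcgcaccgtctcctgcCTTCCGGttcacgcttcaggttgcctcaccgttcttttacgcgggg
Uqcrh: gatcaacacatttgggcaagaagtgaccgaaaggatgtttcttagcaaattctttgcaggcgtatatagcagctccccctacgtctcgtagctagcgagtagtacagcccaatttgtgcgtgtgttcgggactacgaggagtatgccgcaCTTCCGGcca
Cox7c: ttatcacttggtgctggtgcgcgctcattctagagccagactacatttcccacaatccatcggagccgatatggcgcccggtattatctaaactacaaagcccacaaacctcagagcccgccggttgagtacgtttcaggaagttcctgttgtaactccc
Atp5k: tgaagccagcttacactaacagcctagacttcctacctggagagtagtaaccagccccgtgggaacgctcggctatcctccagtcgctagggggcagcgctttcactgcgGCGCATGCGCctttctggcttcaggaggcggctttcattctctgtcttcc

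NRF1 and GABPA are known regulators of respiratory chain genes, which is why their letters were searched for. Promoter windows of 300 bases, from 250 before to 50 after the start, were matched by Entrez gene identifier for 70 of the 89 genes. The strict NRF1 letters GCGCATGCG were found for 8 of the 70 (11.4%) against 1.95% of the 27025 genes with a window. The relaxed letters, which include every strict match, were found for 24 (34.3%) against 7.12%. CCGGAAG was found for 17 (24.3%) against 9.93%, and AAGATGGC, the core of the YY1 motif, for 10 (14.3%) against 3.19%. Against the 16504 genes that were both expressed enough to be tested and had a window, the shares of background were 2.83%, 10.6%, 14.3% and 4.10%, in the same order. The windows of tested subunit genes had a median GC content of 58.5%, against 57.0% for all tested genes. In Atp5k the strict NRF1 letters overlap their own reverse complement 50 to 41 bases before the start, so 10 letters are in capitals. Cox7c has none of these letters in its stretch, which says only that they are not there. A match is a description of the sequence and not a measured binding site.

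In these libraries the 89 genes together took 0.344% to 0.406% of all counts in batch 1 and 0.469% to 0.495% in batch 2. Their summed level was 4056 and 3782 CPM in WT1 and WT2, 3499, 3795 and 3445 CPM in KO1, KO2 and KO3, 4775 and 4952 CPM in WT3 and WT4, and 4694 and 4828 CPM in KO4 and KO5. Every batch 2 library was above every batch 1 library, while the genotypes overlapped in each batch: KO2 lay above WT2, and KO5 above WT3. The mean sum in batch 1 was 3919 ± 194 CPM (SD, n = 2) for wildtype and 3580 ± 189 CPM (SD, n = 3) for knockout. For batch 2 it was 4863 ± 125 CPM (SD, n = 2) for wildtype and 4761 ± 94.8 CPM (SD, n = 2) for knockout. In bulk RNA of this kind, a change in the share of cells with high mitochondrial gene expression and a change in RNA per cell cannot be told apart.

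The order of the batches held within each complex, while the overlap of genotypes did not hold in both batches for any. Complex I genes summed to 1024 and 969 CPM in WT1 and WT2, 851, 951 and 902 CPM in KO1 to KO3, 1145 and 1245 CPM in WT3 and WT4, and 1169 and 1201 CPM in KO4 and KO5. For complex IV the sums were 886 and 927 CPM, 763, 811 and 842 CPM, 1097 and 1189 CPM, and 1099 and 1167 CPM, with the libraries in the same order. In both complexes the batch 1 knockout libraries all lay below the batch 1 wildtype libraries, and in batch 2 the knockout libraries lay between the wildtype libraries. Complex V genes summed to 1568 and 1392 CPM, 1382, 1481 and 1238 CPM, 1875 and 1849 CPM, and 1780 and 1820 CPM in that order. Complex II spanned 184 to 226 CPM in batch 1 and 241 to 250 CPM in batch 2, and complex III spanned 278 to 352 CPM and 399 to 421 CPM. Complex V, like complexes II and III, overlapped between genotypes in batch 1 and had both knockout libraries below both wildtype libraries in batch 2, where the gaps were small.

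**Figure D1:**
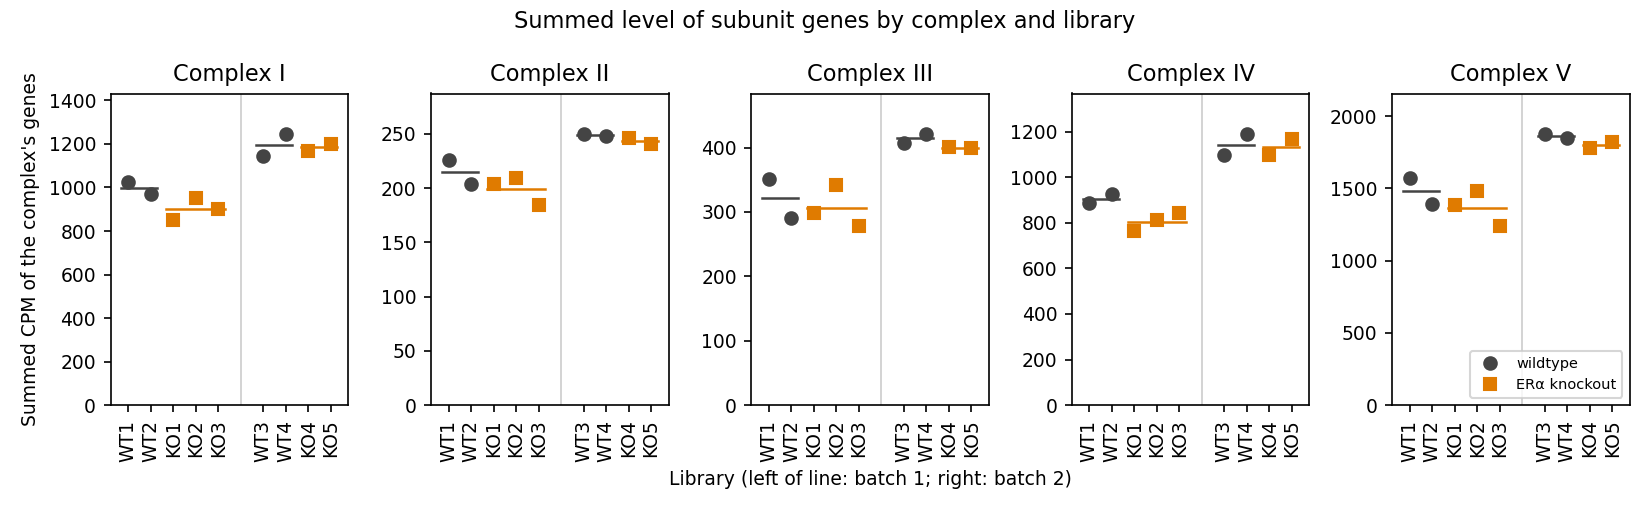
Summed CPM of the subunit genes of each complex (vertical axis, from 0) in each library (horizontal axis, batch 1 left and batch 2 right of the line), with wildtype as circles, knockout as squares and group means as short lines. In all 5 panels every batch 2 point is above every batch 1 point, and the genotype means within a batch lie closer together than the batches.

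The comparison of knockout with wildtype asks whether transcripts of the machinery differ between CD4+ T cells from these mice. Over both batches, with libraries scaled by edgeR's TMM factors and batch in the model, 0 of the 78 subunit genes with enough counts to be tested passed an adjusted p of 0.05 in edgeR's quasi-likelihood test, where 0.00451% of all 22197 tested genes did (1 gene, not a subunit gene). At an unadjusted p under 0.05 there were 4 subunit genes, all lower in the knockout, against 2.36% of all genes. DESeq2 and limma-voom also called 0 of the 78, against 16 and 1 of the 22197 genes. DESeq2 gave no adjusted p for 8617 of the 22197. The fitted log2 fold change was negative for 64 of 78, against 48.6% of all genes, and its median was -0.12 against 0.01 over all genes. By complex the negative counts were 27 of 38 in complex I (median -0.11), 4 of 4 in complex II (-0.15), 7 of 8 in complex III (-0.12), 11 of 11 in complex IV (-0.17) and 15 of 17 in complex V (-0.14). The genes share their libraries, so a count of signs over them is not a count of independent results. Without WT1 the median was -0.083 with 54 of 81 tested genes negative, against a median of -0.075 over all genes. Without WT2 it was -0.29 with 77 of 81, against -0.048 over all genes. Without KO3 it was -0.13 with 65 of 80 and 0 calls, against -0.059 over all genes and 1 call among 23731. The subunit median by complex was then -0.10, -0.13, -0.074, -0.19 and -0.13 for complexes I to V.

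Within batch 1 the same test called 0 of 78 subunit genes, against 0.126% of all 24600 genes tested there, and 0 of 78 had an unadjusted p under 0.05, against 1.97% of all genes. Of the 78, 68 were negative, against 46.2% of all genes, with a median of -0.26 against 0.04. The median was -0.26 in complex I (30 of 38 negative), -0.25 in complex II (4 of 4), -0.23 in complex III (7 of 8), -0.32 in complex IV (11 of 11) and -0.25 in complex V (16 of 17). This shift rested on single wildtype libraries. Without WT1 the median was -0.012 with 40 of 78 negative, against 0.0099 over all genes. Without WT2 it was -0.52 with 77 of 78 negative, against 0.32 over all genes. Without KO3 it was -0.18 with 58 of 78 negative and 0 calls, against -0.0057 over all genes and 35 calls among 22292. The subunit median by complex was then -0.17, -0.043, -0.083, -0.29 and -0.15 for complexes I to V. WT1 had the highest level of the 5 batch 1 libraries for 27 of the 78 subunit genes and the lowest for 1, whereas WT2 was highest for 20 and lowest for 24. The summed level of the 8 CD4+ T cell markers was lower in the same libraries: it was 3983 and 3730 CPM in WT1 and WT2 and 3462, 3582 and 3262 CPM in KO1 to KO3, with 7 of 8 negative, a median log2 fold change of -0.36 and 0 called. Without KO3, 5 of 8 were negative with a median of -0.19. Summed neutrophil markers moved inside this comparison as well, at 991 and 332 CPM in WT1 and WT2 and at 1242, 760 and 1118 CPM in KO1 to KO3. The part of either in the result was not tested.

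Within batch 2, with deeper libraries, 0 of 80 tested subunit genes passed the adjusted threshold in edgeR, and 0% of the 15910 genes did. DESeq2 also called 0 of the 80, against 329 of the 15910 genes. In edgeR, an unadjusted p under 0.05 was reached by 2 subunit genes, both higher in the knockout, against 7.77% of all genes. Negative values were seen for 55 of 80, against 52.2% of all genes, with a median of -0.07 against -0.02. The median by complex lay between -0.06 (complex III, 5 of 8 negative, and complex I, 26 of 38) and -0.11 (complex V, 11 of 17), with complex II at -0.09 (3 of 4) and complex IV at -0.08 (10 of 13). The smallest adjusted p of a subunit gene in batch 2 was 0.625. Genes of DNA replication and mitosis, a list of 28, were at a median log2 fold change of -0.97 here, with 28 of 28 negative and 0 called, and sums of 3949 and 2381 CPM for WT3 and WT4 against 1292 and 1762 CPM for KO4 and KO5. The 8 CD4+ T cell markers had a median of 0.15 with 0 of 8 negative. Medians were -4.05 for neutrophil markers (8 of 8 negative), -2.74 for red cell markers (6 of 6) and -0.59 for monocyte and macrophage markers (9 of 9), with 0 called. B cell markers went the other way, at 0.28 (2 of 7 negative). Neutrophil sums were 233 and 25.3 CPM in WT3 and WT4 and 5.78 and 9.62 CPM in KO4 and KO5. Red cell sums were 1820, 96.9, 141 and 130 CPM in that order, so WT3 alone was high. The part of these differences in the subunit genes was not tested.

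**Figure D2:**
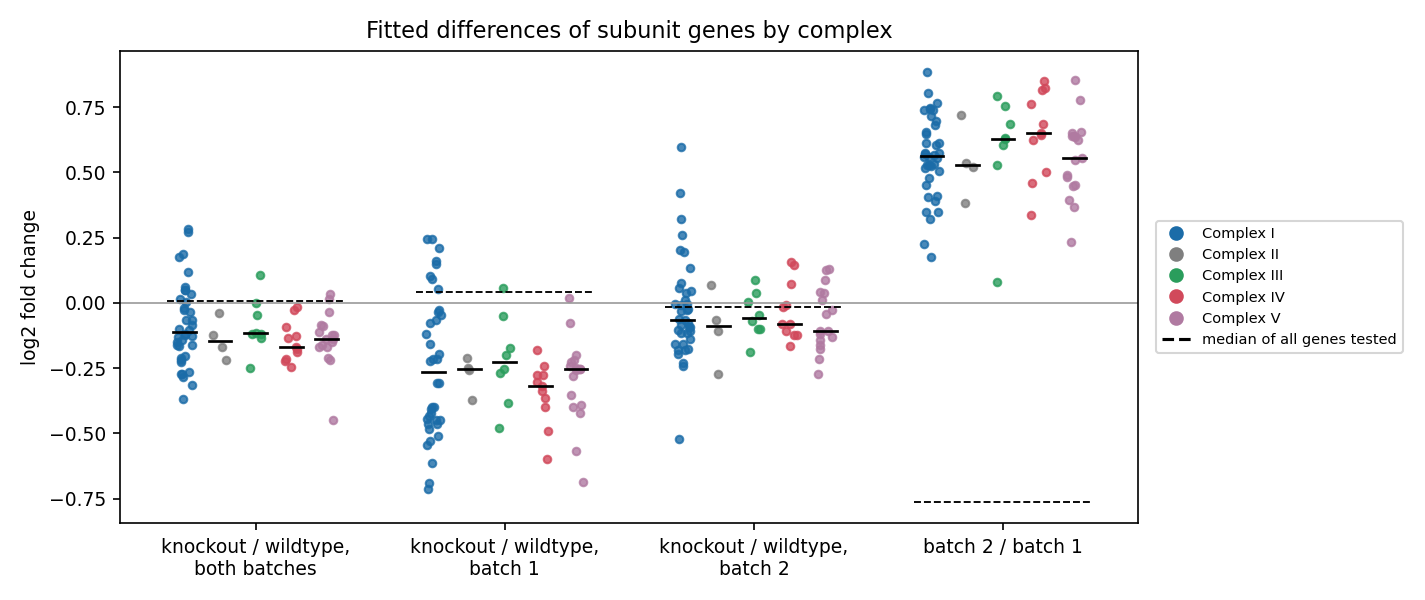
Fitted log2 fold change of each of the 78 genes tested in every comparison (vertical axis), by comparison and complex, with the median of each complex as a solid line and the median of all tested genes as a dashed line. Genotype differences lie around 0 with medians from -0.32 to -0.06, and the points of batch 2 against batch 1 all lie above 0 while the median of all genes there is -0.76.

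Setting the batches beside each other, 48 of the 78 genes tested in both were negative in both (61.5%), against 26.9% of the 15288 genes tested in both. A further 20 were negative in batch 1 and positive in batch 2, 5 were positive in batch 1 and negative in batch 2, and 5 were positive in both. Without KO3, 40 of 78 were negative in both (51.3%), against 24.6% of 15068 genes. Negative values prevailed in each batch by itself, so these shares do not show agreement gene by gene. The test of whether the genotype difference itself differed between batches called 0 of 78, against 0.00451% of all genes. There were 3 subunit genes at an unadjusted p under 0.05 in that test (Ndufa6, Ndufb4 and Cox7c), against 8.36% of all genes, and the smallest adjusted p was 0.533. Without KO3 that test also called 0, against 6 of 23731 genes. Then 3 of 80 had an edgeR unadjusted p under 0.05, against 1598 of 23731 genes.

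**Figure D3:**
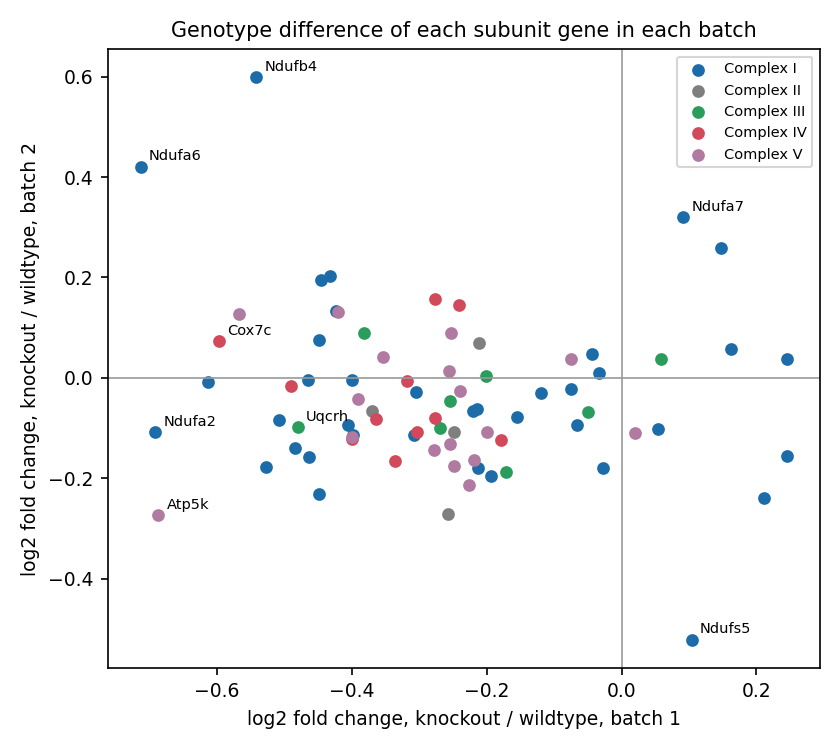
Log2 fold change of knockout over wildtype for 78 subunit genes in batch 1 (horizontal axis) and batch 2 (vertical axis), coloured by complex, with 8 genes named. Of the 78 points, 48 lie below 0 on both axes, and Ndufa6 and Ndufb4 stand at the upper left, low in batch 1 knockout libraries and high in batch 2 knockout libraries.

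Separation of single libraries was examined gene by gene. In batch 1, 17 of 78 subunit genes had all 3 knockout libraries below both wildtype libraries in CPM, against 5.25% of all genes, and 0 had them all above, against 10.9%. The 17 were 7 genes of complex I, 2 of complex III, 3 of complex IV and 5 of complex V. In batch 2, 23 of 80 had both knockout libraries below both wildtype libraries, against 20.5% of all genes, and 11 had both above, against 19.5%. Atp5k and Uqcrh had the knockout libraries lower in both batches, which is 2 of 78 (2.56%) against 1.08% of the 15288 genes tested in both. Atp5c1 and Atp5h had them lower in batch 1 and higher in batch 2, again 2 of 78, against 2.32% of those genes. The remaining 13 of the 17 overlapped between genotypes in batch 2. With fewer libraries a separation is easier to reach, for any gene. Without WT1, 25 of 78 subunit genes (32.1%) were lower and 24 (30.8%) higher in batch 1, against 20.9% and 22.7% of all genes. Without WT2, 39 (50%) were lower and 1 (1.28%) higher, against 13.5% and 50.02%. Without KO3, 31 (39.7%) were lower and 2 (2.56%) higher, against 11.1% and 15.2%. In batch 2, 46 of 80 (57.5%) were lower without WT3, against 43.7% of all genes, and 41 (51.3%) were lower without KO5, against 32.6%. Higher in batch 2 were 25 of 80 (31.3%) without WT4, against 40.9% of all genes.

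Complex I oxidises NADH, and its core genes gave little difference. Ndufv1, which binds the flavin that accepts electrons from NADH, stood at 27.8 and 23.2 CPM in WT1 and WT2, 28.0, 31.6 and 22.7 CPM in KO1 to KO3, 30.3 and 37.0 CPM in WT3 and WT4, and 29.9 and 37.5 CPM in KO4 and KO5. The genotypes overlapped in both batches, and the fitted difference over both was 0.035 on the log2 scale. Ndufs1, an iron-sulfur subunit next to it in the chain, stood at 51.7 and 48.9 CPM, 41.7, 49.3 and 32.7 CPM, 50.8 and 51.9 CPM, and 47.0 and 49.1 CPM in the same order of libraries. Its knockout values were lower in batch 2 by a few CPM and overlapped in batch 1, with a log2 fold change of -0.22 over both batches.

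The complex I genes with the smallest unadjusted p over both batches were the accessory subunits Ndufa2 and Ndufa12. Ndufa2 stood at 20 and 27.7 CPM in WT1 and WT2, 15.7, 14.0 and 18.9 CPM in KO1 to KO3, 24.0 and 26.7 CPM in WT3 and WT4, and 22.5 and 24.3 CPM in KO4 and KO5. All batch 1 knockout values were below both wildtype values, and in batch 2 KO5 lay above WT3. The log2 fold change was -0.37 ± 0.15 (SE; edgeR unadjusted p = 0.036, adjusted p = 1.00), and -0.40 without KO3. Ndufa12 stood at 27.4 and 35.1 CPM, 18.8, 25.0 and 28.1 CPM, 41.0 and 43.1 CPM, and 38.6 and 35.5 CPM in the same order. Here KO3 lay above WT1 in batch 1, and both knockout libraries lay below both wildtype libraries in batch 2. Its log2 fold change was -0.31 ± 0.14 (SE; edgeR unadjusted p = 0.045, adjusted p = 1.00), and -0.36 without KO3.

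Ndufa6 and Ndufb4 were the subunit genes whose batches differed most. Ndufa6, an accessory subunit that binds the mitochondrial acyl carrier protein, stood at 21.3 and 41.2 CPM in WT1 and WT2, 19.4, 18.6 and 23.4 CPM in KO1 to KO3, 29.5 and 30.6 CPM in WT3 and WT4, and 37.7 and 42.4 CPM in KO4 and KO5. WT2 was far above the other batch 1 libraries and KO3 lay above WT1, while in batch 2 both knockout libraries were above both wildtype libraries. The log2 fold change was -0.71 ± 0.36 (SE) in batch 1 and 0.42 ± 0.13 (SE) in batch 2, where the unadjusted p was 0.020 and the edgeR adjusted p was 0.625. Their difference was 1.05 ± 0.36 (SE; edgeR unadjusted p = 0.013, adjusted p = 0.533), and 1.08 without KO3.

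Ndufb4 encodes an accessory subunit of the membrane arm. It stood at 11.9 and 22.7 CPM in WT1 and WT2, 11.7, 14.7 and 10.6 CPM in KO1 to KO3, 13.9 and 14.3 CPM in WT3 and WT4, and 22.9 and 19.7 CPM in KO4 and KO5. As with Ndufa6, WT2 was the high library of batch 1 and both knockout libraries were the high ones of batch 2. The batch 2 log2 fold change was 0.60 ± 0.17 (SE; edgeR unadjusted p = 0.014, adjusted p = 0.625). Ndufb4 has near-identical copies in the table, Ndufb4b and Ndufb4c, and reads shared by such copies are divided by estimation. Ndufb4c stood at 21.1 and 23.4 CPM in WT3 and WT4 and at 15.9 and 21.8 CPM in KO4 and KO5. The sum of the 3 copies was 35.0 and 37.7 CPM for WT3 and WT4 and 38.8 and 41.5 CPM for KO4 and KO5, so the groups lay much closer for the sum than for Ndufb4 alone. In batch 1 that sum was 28.7 and 38.5 CPM for WT1 and WT2 and 23.3, 25.2 and 30.6 CPM for KO1 to KO3, with KO3 above WT1.

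Complex II oxidises succinate and is the only complex here without a mitochondrially encoded subunit. Sdha, the flavoprotein, stood at 121 and 115 CPM in WT1 and WT2, 124, 114 and 96.3 CPM in KO1 to KO3, 128 and 122 CPM in WT3 and WT4, and 135 and 127 CPM in KO4 and KO5. Sdhb, the iron-sulfur subunit, stood at 43.3 and 27.2 CPM, 30.1, 41.4 and 28.2 CPM, 43.0 and 45.4 CPM, and 42.1 and 39.7 CPM in that order. Both overlapped between genotypes in batch 1, where WT2 held the lowest Sdhb value of all 9 libraries. Sdhc, a membrane anchor, ranged from 30.7 to 45.1 CPM in batch 1 and from 43.0 to 50.4 CPM in batch 2, with overlap in each. Sdhd, the other membrane anchor, stood at 22.3 and 19.3 CPM, 19.4, 22.8 and 14.8 CPM, 32.9 and 29.5 CPM, and 25.8 and 25.8 CPM. Its batch 2 knockout libraries were nearly equal and below both wildtype libraries, with a log2 fold change of -0.27 ± 0.15 (SE; edgeR unadjusted p = 0.120, adjusted p = 0.714), and its batch 1 genotypes overlapped.

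In complex III, Uqcrh was the gene with the smallest p over both batches and in batch 1. It encodes the hinge subunit, which supports the contact with cytochrome c, and stood at 57.0 and 54.4 CPM in WT1 and WT2, 42.1, 45.5 and 45.2 CPM in KO1 to KO3, 66.1 and 69.7 CPM in WT3 and WT4, and 66.1 and 60.4 CPM in KO4 and KO5. The batch 1 groups were clearly apart, whereas in batch 2 KO4 lay just below WT3. The log2 fold change was -0.48 ± 0.36 (SE) in batch 1, -0.10 ± 0.11 (SE) in batch 2 and -0.25 ± 0.10 (SE) over both (edgeR unadjusted p = 0.035, adjusted p = 1.00). Without KO3 it was -0.39 in batch 1 and -0.25 over both, with an edgeR unadjusted p of 0.066 over both. Uqcrc1, a core subunit, stood at 105 and 80.6 CPM, 98.9, 106 and 96.1 CPM, 124 and 123 CPM, and 117 and 118 CPM, and its fitted difference over both batches was -0.00064 on the log2 scale. Uqcrfs1, the Rieske iron-sulfur protein that carries electrons within the complex, stood at 23.3 and 11.1 CPM, 22.7, 23.8 and 13.9 CPM, 19.3 and 14.7 CPM, and 17.9 and 17.0 CPM. WT2 and KO3 were the low libraries of batch 1 for Uqcrfs1, 1 in each genotype, and it was the complex III gene whose levels differed least between batches.

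All 11 tested genes grouped in complex IV by symbol had a negative log2 fold change over both batches and within batch 1. Ndufa4, counted in complex I but also known as a complex IV subunit, was positive, at 0.19 over both batches and 0.25 within batch 1. Cox7c, a small structural subunit, stood at 61.8 and 61.3 CPM in WT1 and WT2, 46.8, 49.0 and 37.1 CPM in KO1 to KO3, 63.2 and 58.5 CPM in WT3 and WT4, and 67.2 and 60.7 CPM in KO4 and KO5. Its batch 1 groups were well apart, at 61.5 ± 0.405 CPM (SD, n = 2) for wildtype and 44.3 ± 6.31 CPM (SD, n = 3) for knockout, and its batch 2 groups overlapped. The batch 1 log2 fold change was -0.60 ± 0.36 (SE; edgeR unadjusted p = 0.105, adjusted p = 1.00), and it differed from that of batch 2 by 0.57 ± 0.26 (SE; edgeR unadjusted p = 0.049, adjusted p = 0.591). Without KO3 these values were -0.40 and 0.43, the latter with an edgeR unadjusted p of 0.114. Cox4i1, the largest nuclear-encoded subunit, ranged from 68.7 to 92.2 CPM in batch 1 with overlapping genotypes, and in batch 2 it stood at 108 and 114 CPM for WT3 and WT4 and at 121 and 125 CPM for KO4 and KO5. Cox7a2l, which joins complexes III and IV in supercomplexes, stood at 192 and 176 CPM in batch 2 wildtype and at 210 and 196 CPM in batch 2 knockout. Both genes had their batch 2 knockout values above the wildtype values, but their batch 2 log2 fold changes were only 0.16 and 0.14 and neither passed the threshold. Cox6b1 and Cox6c, with the smallest p of complex IV over both batches, had log2 fold changes of -0.22 each.

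In complex V, Atp5k was the gene with the smallest unadjusted p of all 78 over both batches. It encodes subunit e, which takes part in joining ATP synthase into dimers, and stood at 35.0 and 42.6 CPM in WT1 and WT2, 21.0, 30.9 and 27.2 CPM in KO1 to KO3, 41.4 and 46.6 CPM in WT3 and WT4, and 33.0 and 39.5 CPM in KO4 and KO5. All knockout libraries lay below all wildtype libraries of their batch. The wildtype means were 38.8 ± 5.31 CPM (SD, n = 2) for batch 1 and 44.0 ± 3.63 CPM (SD, n = 2) for batch 2, and the knockout means were 26.4 ± 4.99 CPM (SD, n = 3) for batch 1 and 36.3 ± 4.64 CPM (SD, n = 2) for batch 2. The log2 fold change over both batches was -0.45 ± 0.14 (SE), a fold of 0.733, with an edgeR unadjusted p of 0.010 and an adjusted p of 1.00. Without KO3 it was -0.45 with an unadjusted p of 0.015.

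The catalytic head of ATP synthase behaved less evenly. Atp5a1, the alpha subunit, stood at 294 and 269 CPM in WT1 and WT2, 276, 290 and 242 CPM in KO1 to KO3, 377 and 400 CPM in WT3 and WT4, and 361 and 357 CPM in KO4 and KO5. Atp5b, the catalytic beta subunit, stood at 318 and 202 CPM, 312, 344 and 219 CPM, 424 and 349 CPM, and 361 and 356 CPM in that order. For Atp5b the low batch 1 libraries were WT2 and KO3, so that its fitted difference in batch 1 was 0.02 on the log2 scale, but 0.60 without WT1 and -0.42 without WT2. Atp5c1, the gamma subunit that turns inside the head, stood at 188 and 198 CPM, 152, 170 and 97.0 CPM, 206 and 203 CPM, and 223 and 223 CPM. Its knockout libraries were below the wildtype libraries in batch 1, KO3 most of all, and above them in batch 2, with log2 fold changes of -0.57 ± 0.37 (SE) and 0.13 ± 0.10 (SE), and -0.30 in batch 1 without KO3. Atp5h, a stalk subunit named after its values were seen, had the same layout, with 107 and 105 CPM against 85.1, 97.6 and 76.2 CPM in batch 1 and 115 and 127 CPM against 131 and 133 CPM in batch 2.

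The c subunit of the membrane ring is made from 3 genes that encode the same mature protein. Their sum, Atp5g1 with Atp5g2 and Atp5g3, was 155 and 129 CPM in WT1 and WT2, 129, 134 and 138 CPM in KO1 to KO3, 158 and 166 CPM in WT3 and WT4, and 159 and 154 CPM in KO4 and KO5. The genotypes overlapped in both batches for the sum. Singly, Atp5g1 and Atp5g3 had lower batch 2 knockout values and Atp5g2 had higher ones, with log2 fold changes of -0.18, -0.14 and 0.09 that did not pass the threshold.

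**Figure D4:**
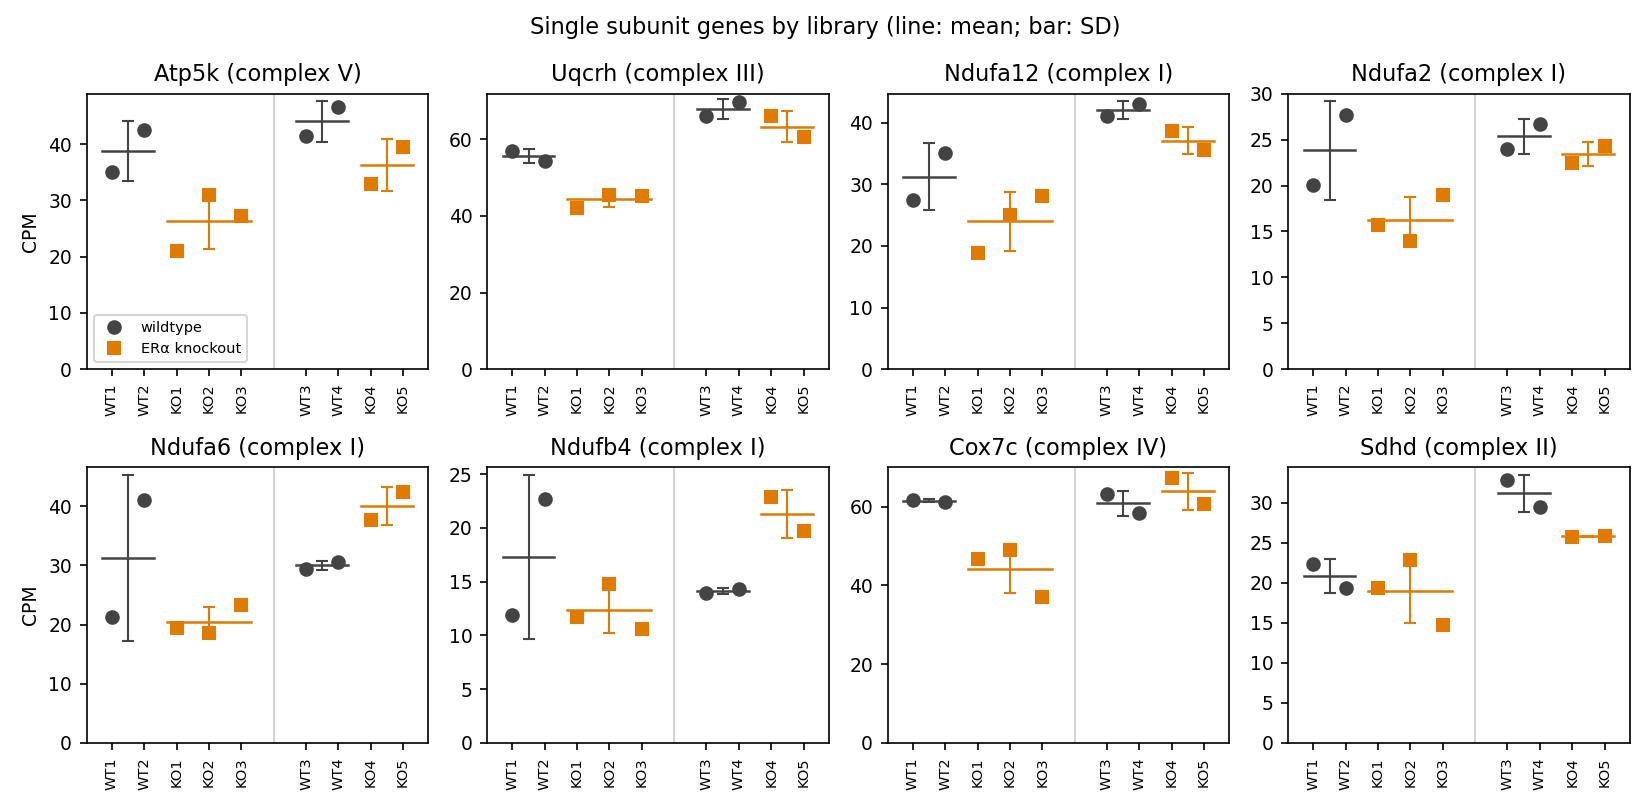
CPM (vertical axes, from 0) of 8 subunit genes in each library, with wildtype as circles, knockout as squares, the group mean as a line and the SD as a bar. Atp5k has the knockout points below the wildtype points of the same batch on both sides of the dividing line, and Ndufa6 and Ndufb4 show WT2 high on the left and both knockout points high on the right.

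The difference between batches was the one comparison in which subunit genes changed. With genotype in the model, 66 of 78 rose in batch 2 against batch 1 at an edgeR adjusted p under 0.05 and 0 fell, against 16.8% of all 22197 genes that rose (3724 genes) and 10497 that fell. All 78 had a positive log2 fold change, with a median of 0.57 against -0.76 over all genes. The genes that rose were 29 of 38 in complex I, 4 of 4 in complex II, 7 of 8 in complex III, 11 of 11 in complex IV and 15 of 17 in complex V, with medians of 0.56, 0.53, 0.63, 0.65 and 0.55. Without KO3, 68 of 80 rose and 0 fell, with a median of 0.67. Of the 23731 genes tested then, 4563 rose and 10989 fell. Library by library, 36 of 78 had every batch 2 library above every batch 1 library in CPM, against 5.01% of all genes, and 0 had every one below, against 48.2% of all genes. That count was 12 of 38 in complex I, 1 of 4 in complex II, 6 of 8 in complex III, 8 of 11 in complex IV and 9 of 17 in complex V.

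The gene with the largest fitted rise in each complex was Ndufb9, an accessory subunit, at 0.88 ± 0.13 (SE) in complex I, Sdhd at 0.72 ± 0.16 (SE) in complex II, Uqcrb at 0.79 ± 0.14 (SE) in complex III, Cox5a at 0.85 ± 0.11 (SE) in complex IV, and Atp5j2, subunit f, at 0.85 ± 0.12 (SE) in complex V, all on the log2 scale. Cox5a stood at 51.1 and 62.3 CPM in WT1 and WT2, 49.1, 49.4 and 52.4 CPM in KO1 to KO3, 75.9 and 95.5 CPM in WT3 and WT4, and 71.0 and 87.2 CPM in KO4 and KO5, so the lowest batch 2 value was above the highest batch 1 value (edgeR adjusted p = 0.000194). Atp5j2 stood at 16.3 to 19.7 CPM in batch 1 and at 24.1 to 31.3 CPM in batch 2. At the other end were Ndufc2 at 0.18, Sdha at 0.38, Uqcrfs1 at 0.08, Cox7a2l at 0.34 and Atp5g1 at 0.24, of which Sdha and Cox7a2l passed the threshold and the other 3 did not.

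The size of the batch difference depended on how libraries were scaled. Batch 1 libraries had counts in 32046 to 34085 genes and the deeper batch 2 libraries in 17008 to 18309. With library totals alone 33 of 78 passed, with a median of 0.35 against -0.997 over all genes, and with upper-quartile scaling 35 passed, with a median of 0.38 against -0.97. DESeq2 size factors gave 62 calls, a median of 0.50 and -0.84 over all genes. Of all 22197 genes, 12436, 12494 and 13515 were called in either direction under these scalings in that order, against 14221 as reported. Of the 14221, 10497 fell, so these totals are not a background for the rises of subunit genes. The CD4+ T cell markers rose with the subunit genes: 8 of 8 were called higher, with a median of 0.54 and sums of 3262 to 3983 CPM in batch 1 and 4151 to 4764 CPM in batch 2. Of the red cell markers 5 of 6 were called higher in batch 2 as well, with sums of 4.09 to 51.8 CPM against 96.9 to 1820 CPM. Of the B cell markers 4 of 7 were called lower, with sums of 49.0 to 104 CPM in batch 1 and below 49.0 CPM in every batch 2 library. Of the dendritic cell markers 5 of 6 were called lower, with sums of 12.9 to 41.7 CPM against 2.90 to 9.47 CPM. The batches also differed in depth, in Xist and Ddx3y, in sensory receptor counts and in neutrophil markers, as given above. The part of each of these in the level of the subunit genes cannot be told apart.

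Of the 89 genes, 11 had too few counts to be tested over both batches, most of them muscle, testis or lung forms of a subunit or near copies. Cox6a2 and Cox8b, forms used in heart and skeletal muscle, had 0 to 9 and 0 to 4 counts per library. Cox4i2, a lung form, had 0 to 6, Cox7b2 and Cox8c, testis forms, had 0 to 4 each, and Ndufa4l2 had 1 to 12 counts in batch 1 and 0 in batch 2. Ndufa11b, Ndufb4b and Ndufs6b had 0 to 6, 0 to 3 and 0 to 2 counts. Cox6b2, a testis form, and Cox7a1, a muscle form, had enough counts to be tested in batch 2, with 103, 0, 6 and 37 counts and 29, 46, 44 and 29 counts in WT3, WT4, KO4 and KO5. Several of these values lie at or under a floor of 3 counts, which is 0.266 to 0.609 CPM in batch 1 and 0.0430 to 0.0666 CPM in batch 2, and no difference was detectable at this depth. By contrast the ubiquitous forms were well detected, with Cox6a1 at 108 to 143 CPM in batch 1 and 167 to 207 CPM in batch 2, and Cox7a2 at 37.1 to 51.8 CPM and 57.1 to 66.3 CPM. None of the 13 mitochondrially encoded subunits was matched, and they are not analysed here.

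Other genes of the mitochondrion were described from lists. In the knockout comparisons, over both batches or within either, 0 genes of any of these lists passed the threshold. Assembly factors, the chaperones and helpers that build complexes I to V (47 genes), had median log2 fold changes of -0.03 in batch 1 and 0.03 in batch 2. The 78 mitochondrial ribosome genes had -0.27 and 0.03, the 23 import genes -0.32 and 0.02, the 17 genes of the citric acid cycle and pyruvate dehydrogenase -0.20 and -0.01, and 17 regulators of mitochondrial biogenesis -0.15 and 0.15. The ribosome and import medians in batch 1 were thus near that of the subunit genes, and all lay near 0 in batch 2 apart from the regulators. Without KO3 the batch 1 medians were -0.15 for the ribosome, -0.17 for import and 0.00067 for the citric acid cycle genes. The 16 electron carrier and ubiquinone genes had -0.08 and -0.06, and the 16 glycolysis genes -0.05 and -0.10.

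Between batches these lists differed from each other. Of the citric acid cycle genes 14 of 17 rose in batch 2 and 0 fell, of the import genes 14 of 23 rose and 0 fell, and of the mitochondrial ribosome genes 36 of 78 rose and 1 fell. Assembly factors had 9 of 47 that rose and 2 that fell, with a summed level of 624 to 682 CPM in batch 1 and 666 to 707 CPM in batch 2. The regulators had 5 of 17 that rose and 3 that fell, and their sum was 1017 to 1137 CPM in batch 1 and 981 to 1095 CPM in batch 2. The summed levels of assembly factors and of regulators thus overlapped between batches. Those of the citric acid cycle (925 to 1174 CPM against 1250 to 1295 CPM), import (739 to 1007 CPM against 1092 to 1165 CPM), the mitochondrial ribosome (1418 to 1586 CPM against 1597 to 1698 CPM) and glycolysis (2866 to 3465 CPM against 3959 to 4831 CPM) did not, as was the case for the subunit genes. Glycolysis genes had 11 of 16 that rose and 0 that fell, and replication and mitosis genes 13 of 28 and 0. Whether any list differed from another was not tested.

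The subunit genes with and without each promoter motif were set side by side. Over the 65 tested genes with a promoter window, the median rise in batch 2 was 0.63 on the log2 scale for the 24 with the relaxed NRF1 letters and 0.56 for the 41 without them. It was 0.64 for the 17 with the ETS letters and 0.56 for the 48 without, 0.54 for the 8 with the strict NRF1 letters and 0.57 for the 57 without, and 0.57 for both the 10 with and the 55 without the YY1 letters. For the knockout comparison over both batches the medians were -0.12 and -0.10 for the relaxed NRF1 letters and -0.13 and -0.10 for the ETS letters, with and without a match. They were -0.12 and -0.12 for the strict NRF1 letters and -0.083 and -0.12 for the YY1 letters, so the direction was not the same for all motifs. These are descriptions with no test.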

How the data were processed

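The table of 9 libraries that the authors deposited holds estimated counts (expected counts) per gene, not scaled to a common depth, per the file headers, and 0 sample columns were left unused. Per the submitters' processing notes, Salmon 1.2.0, R 4.0.3 and GRCm39 were involved. For strand setting and annotation the sources used here give nothing, and a scaling of the estimates by transcript length was not tested. Estimates were rounded to whole numbers and fitted over all genes with edgeR 4.0.16 in R 4.3.3: the default low-count filter by genotype (minimum count 10, minimum total 15), TMM scaling, robust quasi-likelihood test, Benjamini-Hochberg adjustment over all genes tested, threshold 0.05. Models had batch and genotype, genotype within each batch, or their interaction. Standard errors come from the F statistic. CPM is counts over the library total, with no pseudocount.

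Genes named singly are, per complex, those with the smallest p in each genotype comparison and the ends of the batch difference, plus fixed core subunits and tissue-restricted isoforms, 44 in all, not all of which are given with values; others were chosen after their values were seen. The members and lists were chosen with earlier results of these data known. Alternatives were DESeq2 1.42.0, limma-voom (limma 3.58.1), other scalings and filters, no batch term, a replicate block and leaving out each library; those on overlap of CPM were chosen after seeing the data. Methods were tested on simulated data. Replicate libraries differed by more than sampling noise (chi-square per degree of freedom 4.80 to 153). Protein sequences were not used here.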

Additional observations from a re-analysis of the deposited data

Results flagged for a closer look

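Sdhb, the iron-sulfur subunit of complex II, had 1 wildtype library away from the other 3: WT2 stood at 27.2 CPM, and the others lay between 43.0 and 45.4 CPM. WT2 is 1 of the 2 batch 1 wildtype libraries, and the 4 values pool both batches. Gaps of this kind were looked for in 84 groups of 4 or 5 libraries, and this was the only 1 found. Chance alone gives about 4.2 if groups are independent and each comes from a single population. These groups pool both batches and share their libraries, so the found and expected numbers cannot be compared.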

How the results depend on the processing

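No subunit gene passed the threshold in the pooled, batch 1, batch 2 or interaction test under any scaling, filter, tool or model run. Of all genes tested, 0 to 16 passed in the pooled test, 3 to 68 in batch 1, 0 to 329 in batch 2 and 1 to 165 in the interaction. Leaving out each of the 9 libraries also gave 0 in the pooled test, where 0 to 3 of all genes passed. Where almost no gene passed, a count of 0 subunit genes says little. The replicate number, used as a block, gave 0 calls and a median log2 fold change of -0.11 (58 of 78 negative). Number 3 falls in both batches, so the numbers do not pair the libraries throughout. Deviations of same-numbered wildtype and knockout libraries correlated at 0.41, -0.43 and -0.11. With 2 wildtype libraries in each batch, their deviations mirror each other, so these correlations cannot settle whether libraries were paired.

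Calls of the batch difference went from 66 to 33 with library totals and 35 with upper-quartile scaling. Those over all genes, falls as well as rises, went from 14221 to 12436 and 12494. The batch 1 median of subunit genes moved from -0.26 to -0.40 with DESeq2 (its test, or its size factors in edgeR), -0.12 with library totals and -0.19 with upper-quartile scaling, while all genes moved from 0.04 to -0.08, 0.19 and 0.11. The median of the batch difference went from 0.57 to 0.50 with either DESeq2 setting, 0.35 with library totals, 0.38 with upper-quartile scaling, 0.84 with no filter and 0.72 with a stricter filter. That of the interaction went from 0.09 to 0.21, 0.17 and 0.17 with no filter, a stricter filter and upper-quartile scaling, and the pooled median from -0.12 to -0.22 with no filter. With CPM scaled by TMM factors, 1 gene was above wildtype in every batch 1 knockout library, against 8.01% of all genes. The causes were not tested.

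Leaving out 1 library gave subunit medians of -0.29 to -0.083 over both batches, -0.52 to -0.012 in batch 1 and -0.090 to -0.025 in batch 2. Medians over all genes were -0.075 to 0.057, -0.0057 to 0.32 and -0.038 to -0.0031 in the same order. The subunit medians were -0.13 to 0.44 for the interaction and 0.56 to 0.81 for the batch difference. Over all genes these were -0.34 to -0.086 and -3.10 to -0.52. The batch difference had 55 to 69 calls among subunit genes. Of the 21293 to 28864 genes tested, 11456 to 18656 were called, falls as well as rises, which is not a background for rises alone. Genes apart between genotypes numbered 21 to 39 lower and 1 to 24 higher in batch 1, where 7.32% to 20.9% and 15.2% to 50.02% of all genes were so. In batch 2 they numbered 27 to 46 lower and 16 to 25 higher, where 32.6% to 43.7% and 30.2% to 40.9% of all genes were so. With 2 or 3 libraries a group and SEs near 0.36 in batch 1, small differences were not detectable there. Those SEs were alike for genes of unlike spread, at 0.362 for Cox7c and 0.383 for Atp5b. In batch 2, with 2 libraries a group, they were 0.125 and 0.141 for these genes. The batch 1 SEs thus do not give the spread of each single gene.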
